A study of Mus musculus with 14 samples.

Results

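The extracellular proteinases that cut matrix proteins, and the proteins that hold them in check, were followed through embryoid body (EB) differentiation in 2 mouse embryonic stem cell (ESC) lines. Members were chosen by name, in families picked with earlier results of these data known. The deposited CPM table (counts scaled to library size) was searched by symbol. The rule took every gene named Mmp, Adamts or Adamtsl with a number, and Timp1 to Timp4. The rule found 39 of 16181 listed genes. They comprised 7 Mmp genes whose products are secreted or released, 6 membrane-type Mmp genes, 17 Adamts genes, 5 Adamtsl genes and 4 Timp genes.

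Matrix metalloproteinases (MMPs) are zinc-dependent enzymes made as inactive pro-forms. They degrade collagens, gelatins and other matrix proteins, and the membrane-type MMPs do so at the cell surface, where MT1-MMP (Mmp14) with TIMP2 also activates pro-MMP2. ADAMTS proteinases are secreted and bind the matrix. Different members trim procollagen, cleave proteoglycans such as versican and aggrecan, or act on fibrillin microfibrils. ADAMTS-like proteins lack the catalytic domain. TIMPs are the tissue inhibitors, and TIMP3 also inhibits several ADAMTS and ADAM enzymes. In embryos these proteins are best known from mesenchyme, from migrating cells and from the remodelling of basement membranes.

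Both lines are mouse ESCs with an Osr1-GFP reporter that stably carry a short hairpin RNA, shLacZ as the control or shDis3l2 against Dis3l2, which encodes an exoribonuclease that degrades uridylated RNA. Whether either line is a clone or a pool is not given in the sources used here. RNA was taken from undifferentiated ESCs in LIF and 2i (d0) and, without LIF and 2i, from EBs every second day through d12. Each line gave a single library on each of these 7 days, so a difference on 1 day has no replicate check. Below, 7 values in a row run over the days from d0 to d12.

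The 14 libraries held 7178712 to 39888099 counts, with shLacZ d4 and shLacZ d10 among the shallowest at 7178712 and 8261330. Dis3l2 itself stood at 36.7, 18.2, 25.0, 26.9, 22.7, 21.5 and 21.9 CPM in the control, against 5.23, 5.2, 8.06, 14.8, 22.0, 20.4 and 16.5 CPM in its knockdown, so the targeted transcript was low from d0 to d4 and close to the control at d8 and d10. The name shDis3l2 therefore means the libraries so labelled. At d0 the TMM factors of edgeR were 0.711 for shLacZ and 0.623 for shDis3l2, against 1.02 to 1.15 in the other 12 libraries, so folds that involve d0 depend on the scaling.

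**Figure D1:**
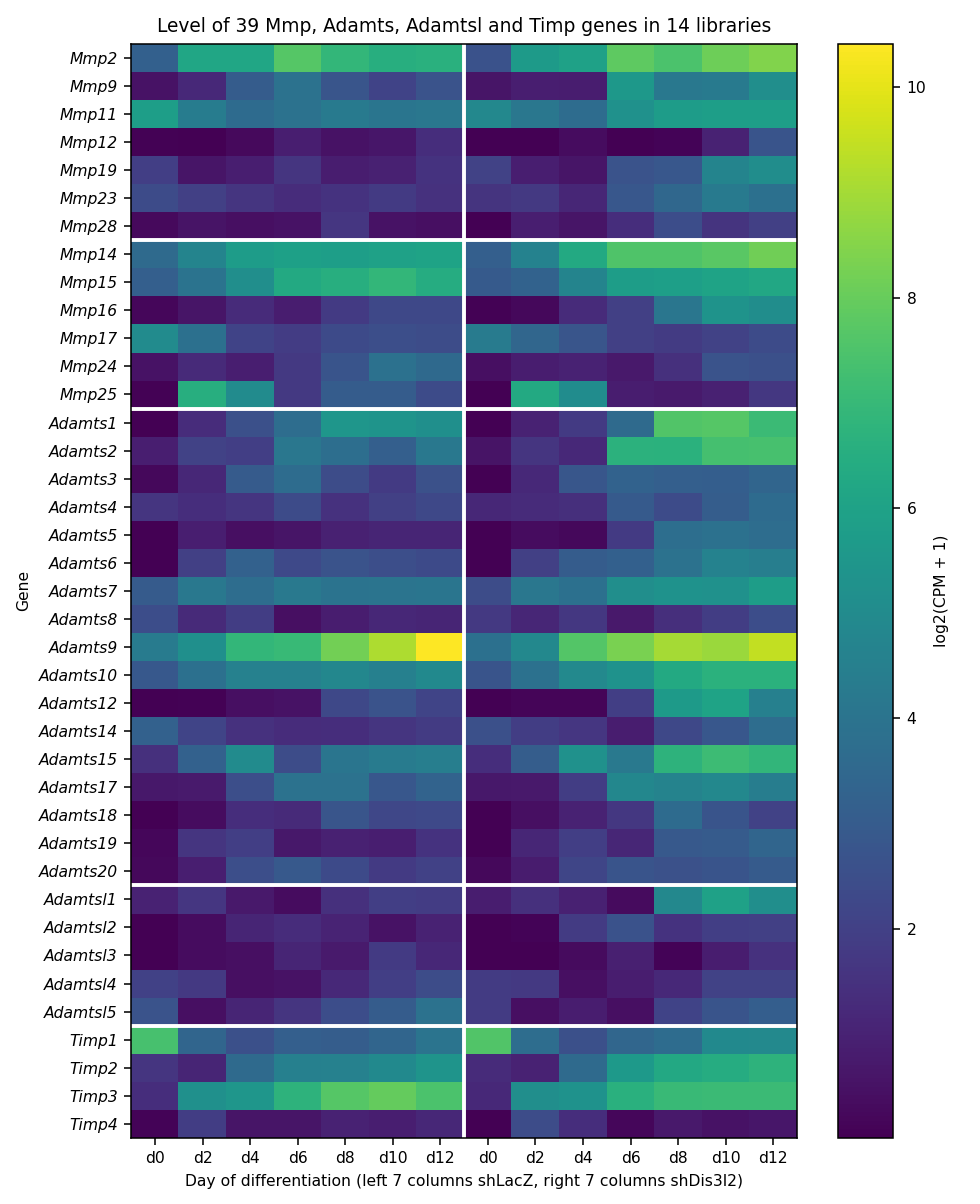
Heat map of log2(CPM + 1) for the 39 genes (rows, grouped as secreted Mmp, membrane-type Mmp, Adamts, Adamtsl and Timp) in the 14 libraries (columns, shLacZ on the left and shDis3l2 on the right, d0 to d12). Most rows brighten toward d12, Timp1 and Mmp17 are brightest at d0, and Mmp25 is brightest at d2.

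Of the 39 genes, 30 reached at least 10 CPM in 1 or more libraries, 11 reached at least 100 CPM and 5 stayed under 5 CPM throughout. Differentiation raised most of them in both lines. A gene was counted as changed where its fold, the ratio of counts scaled to the total over listed genes, was at least 3 and its level at least 1 CPM in 1 of the 2 libraries. From d0 to d12 in shLacZ, 26 of 38 compared members rose at least 3-fold, against 28.5% of all genes compared, and 5 fell, against 14.2% of all genes. From d0 to d12 in shDis3l2, 31 of 38 rose, against 38.0% of all genes, and 2 fell, against 12.9%. The median log2 fold was 3.62 over the members and 0.44 over all genes in shLacZ, and 4.75 and 0.88 in shDis3l2. With TMM-scaled library sizes the medians over all genes were 0.05 and 0.26, and those over the members 3.23 and 4.14.

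The 5 genes that fell in shLacZ were Timp1, Mmp17, Mmp11, Adamts14 and Adamts8. Of these, Timp1 and Mmp17 also fell in shDis3l2. Mmp11, Adamts14 and Adamts8 were 2.0-fold, 2.55-fold and 1.93-fold higher at d12 than at d0 there. The log2 folds of Mmp11 and Adamts8, 0.997 and 0.949, lay near the median of 0.88 over all genes in shDis3l2. That of Adamts14 was 1.35. With TMM-scaled library sizes the median over all genes was 0.26, so the size of these rises depends on the scaling at d0. Whether the 2 lines differed in these courses was not tested by itself, since each line has 1 library at d0 and 1 at d12.

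The lines differed in few of these genes early and in many later. Of 19 members compared at d0 and 27 at d2, none was at least 3-fold higher or lower in shDis3l2. Background shares over all genes on these days were 0.730% higher and 2.24% lower at d0, and 0.127% higher and 0.194% lower at d2. At d4, 1 of 31 compared members was higher (Timp4, background 0.433%) and 1 was lower (Mmp9, background 1.83%). Of the 34 members compared at d6, 10 were higher (background 2.84%) and 3 were lower (background 4.52%). At d8, 12 of 37 were higher (background 5.59%) and 2 were lower (background 4.00%). At d10, 22 of 38 were higher (background 8.78%) and 2 were lower (background 3.21%). At d12, 22 of 39 were higher (background 8.24%) and none was lower (background 1.59%).

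The median log2 fold of the members moved in the same course, from -0.52 at d0, -0.24 at d2 and -0.02 at d4 up to 0.96 on d6, 1.21 on d8, 1.64 on d10 and finally 1.76 on d12. Over all genes it was -0.26 at d0 and between -0.05 and 0.05 on the other days. At d0, 17 of 19 members had a fold under 1, and with DESeq2 size factors 12 of 19 did, with medians of -0.19 over the members and 0.07 over all genes. The d0 values are therefore read relative to all genes.

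**Figure D2:**
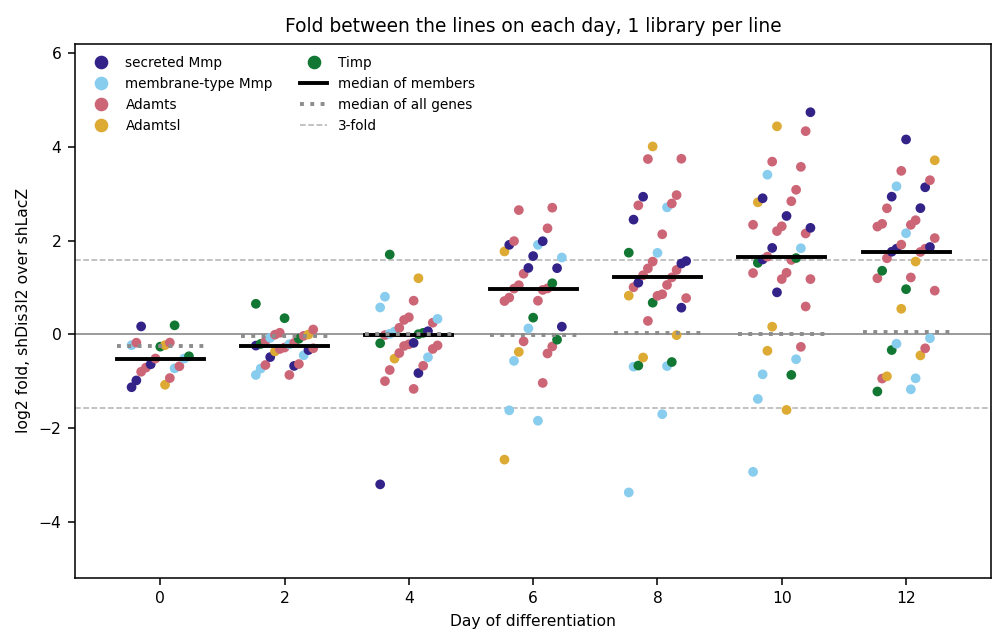
Log2 fold of shDis3l2 over shLacZ (vertical axis) on each day (horizontal axis), with 1 point per compared member coloured by class, the median of the members as a black bar and the median of all genes as a dotted grey bar. Points are spread sideways for legibility, dashed lines mark 3-fold, and the black bar climbs from -0.52 at d0 to 1.76 at d12 while the dotted bar stays near 0 from d2 onward.

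Over the 4 late days, 7 members were at least 3-fold higher in shDis3l2 on every day: Mmp14, Mmp16, Mmp23, Adamts2, Adamts5, Adamts12 and Adamts15. A further 20 were higher on 1 to 3 of these days. The shares of all genes called on every late day, on some or on none were not counted. On single late days 2.84% (d6) to 8.78% (d10) of all genes were higher. Lower calls were fewer, with Mmp25 on 3 days, Mmp24 on 2, and Adamtsl3 and Adamtsl5 on 1 each. The remaining 8 members (Mmp15, Mmp17, Adamts9, Adamts18, Adamts20, Adamtsl4, Timp3 and Timp4) were called on no late day. Of all 39 members, 13 had their 4 late shDis3l2 libraries above all 4 late shLacZ libraries, an arrangement seen in 13.3% of all genes, and 2 (Mmp15 and Mmp25) had them below, seen in 10.8%.

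Whether the difference was stable over days was asked with the quasi-likelihood F test of edgeR, fitted to the whole count table with day as a block and Benjamini-Hochberg adjusted p under 0.05. The days of 1 series took the place of replicates, so these p-values measure the spread between days and say nothing of other cultures of the lines. Over d6 to d12, 24 of 39 members were higher in shDis3l2 (19.6% of all genes tested were), 4 were lower (18.7% of all genes were) and 11 were not called. Their median log2 fold change was 1.34, against 0.02 over all genes. The 4 lower members were Mmp25, Mmp24, Mmp15 and Timp3. In the change of the line difference from d0 to d4 into d6 to d12, 18 members shifted toward shDis3l2 (4.85% of all genes did) and 1, Mmp25, shifted toward shLacZ (5.24% of all genes did). The late days and the split between d4 and d6 were chosen with earlier results of these data known. Calls that rest on them are therefore no independent test of a late difference. Over all 7 days, 1 member, Adamts12, was higher (1.91% of all genes were) and 2, Mmp15 and Mmp24, were lower (3.82% were). At an unadjusted p under 0.05 the 7-day fit held 22 of 39 members, in either direction, and 5323 of 20050 genes. The 7-day fit moved with single days over all genes as well as over the members. Without d8, d10 or d12 none of the 7-day calls of members remained. All genes went from 382 higher and 765 lower to 4 and 9, 1 and 7, and 2 and 10. Without d0 or without d2, 10 members were higher in that fit, with 841 and 754 of all genes higher. Without d4 it was 3 members and 445 of all genes. The 18 shifts were 10 without d2, 11 without d8 and 12 without d10. Over all genes, the 972 shifts toward shDis3l2 were 315, 431 and 363. Over d6 to d12, 20 of the 24 higher calls remained without d8 or without d10, and the 4 lower calls were 2 without d10. Over all genes, the 3365 higher calls were 1784 without d8 and 1695 without d10. The 3209 lower calls were 1641 without d10.

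Mesenchyme markers moved with the family. Of 8 such markers, 7 were higher in shDis3l2 over d6 to d12 (19.6% of all genes were). None was lower, and Pdgfra was not called. Their summed level was 426 to 1904 CPM in the late shLacZ libraries and 1117 to 17347 CPM in those of shDis3l2. Of the 17347 CPM at shDis3l2 d12, Col3a1, Col1a1 and Col1a2 held 8771, 3910 and 3439 CPM. The d12 folds of the other markers were 1.25 (Twist1), 1.31 (Pdgfra), 2.55 (Pdgfrb), 9.71 (Prrx1) and 29.9 (Dcn). In whole EBs, fewer cells of a type and less RNA per cell cannot be told apart, and the part of mesenchyme in the differences below was not tested.

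**Figure D3:**
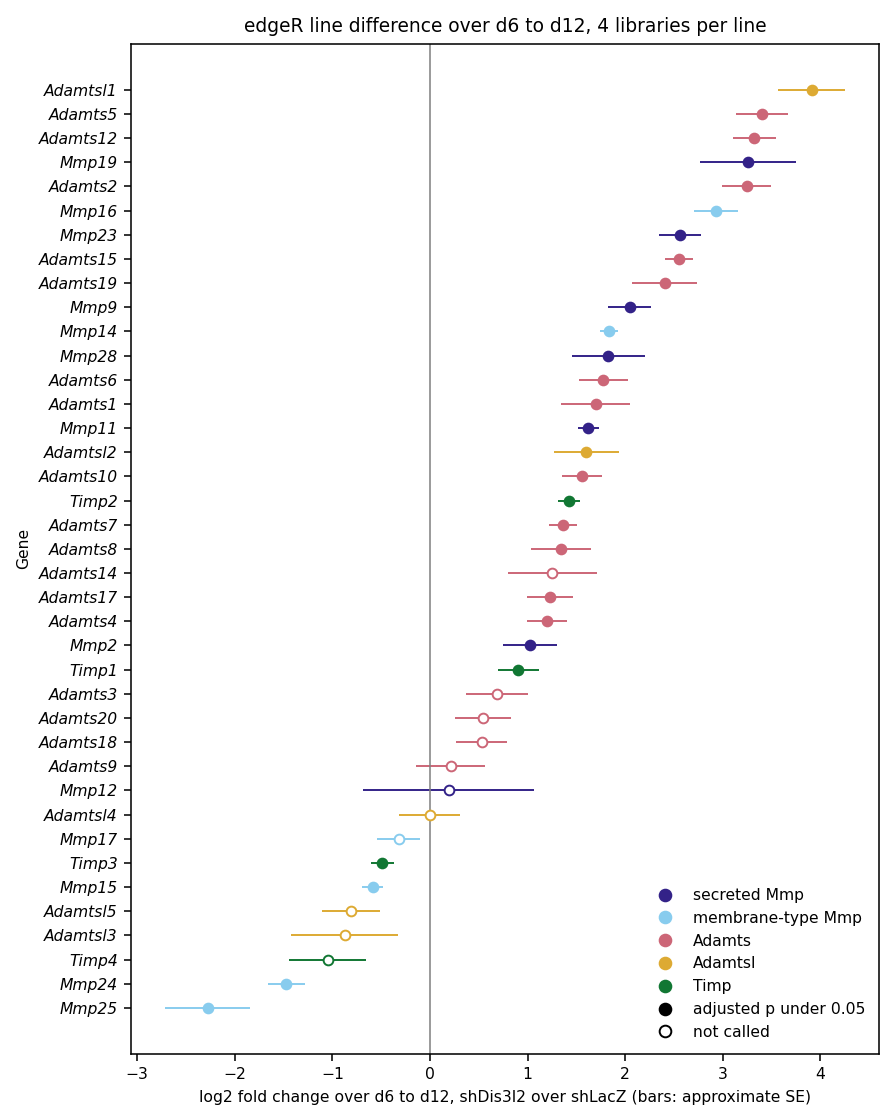
Log2 fold change of shDis3l2 over shLacZ over d6 to d12 (horizontal axis) for each of the 39 genes (vertical axis, sorted), coloured by class, with bars for the approximate SE over 4 libraries per line. Filled points passed the adjusted threshold, from Mmp25 at -2.28 to Adamtsl1 at 3.91, and open points did not.

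Among the secreted MMPs, all 7 were at least 3-fold higher in shDis3l2 at d12. Mmp2 (chr8:92827291-92853420, GRCm38), the gelatinase that MT1-MMP activates, had the highest level per length of them from d2 on. Mmp2 was at 8.07, 69.9, 70.5, 203, 119.5, 92.2 and 97.4 CPM in the shLacZ libraries, and in those of shDis3l2 at 5.18, 49.8, 62.1, 227, 177, 279 and 345 CPM. Both lines rose to d6 and were lower at d8, after which shDis3l2 rose above its d6 level and shLacZ stayed below its own. On d6 the fold was 1.12 (1.06 to 1.19) and on d8 1.48 (1.4 to 1.57), and it reached 3.02 (2.79 to 3.28) at d10 and 3.55 (3.29 to 3.82) at d12 (95% Clopper-Pearson intervals, counting error only), and the late libraries of the lines overlapped where shDis3l2 d8 lay below shLacZ d6. Over d6 to d12 Mmp2 had an edgeR log2 fold change of 1.02 ± 0.27 (SE, 4 libraries per line, adjusted p = 0.025), higher in shDis3l2. Without d8, d10 or d12 it was not called, with a highest adjusted p of 0.114.

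Mmp9 (chr2:164940780-164955850), the second gelatinase, turned between d4 and d6. Mmp9 was at 0.424, 1.32, 7.15, 14.5, 5.73, 3.27 and 5.29 CPM in the shLacZ libraries, and in those of shDis3l2 at 0.514, 0.832, 0.786, 46.0, 16.9, 18.7 and 34.1 CPM. At d4 shLacZ was the higher line, with 45 counts against 14 in the deeper shDis3l2 library, a fold of 0.108 (0.055 to 0.201). From d6 on, every shDis3l2 library was above every shLacZ library, with folds from 2.95 at d8 to 6.46 at d12. edgeR gave Mmp9 a log2 fold change of 2.04 ± 0.22 over d6 to d12 (adjusted p = 9.61e-04), higher in shDis3l2.

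Mmp11 (chr10:75923222-75936496), stromelysin-3, which stromal fibroblasts are known to make, was high in ESCs. Mmp11 was at 55.8, 19.8, 11.4, 14.1, 18.6, 15.6 and 16.6 CPM in the shLacZ libraries, and in those of shDis3l2 at 28.2, 16.7, 11.9, 37.7, 52.8, 55.7 and 56.2 CPM. It fell in both lines to d4. On the late days it then stood at 37.7 to 56.2 CPM in shDis3l2 and at 14.1 to 18.6 CPM in shLacZ. Mmp11 had a late log2 fold change of 1.62 ± 0.11 (edgeR, adjusted p = 3.39e-04), higher in shDis3l2. Its annotated exons overlap Chchd10 on the opposite strand over 5.58% of their bases, and the strand setting of the counting is not given in the sources used here.

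Mmp19 and Mmp23 were scarce in shLacZ throughout. Mmp19 was at 2.82, 0.534, 0.83, 2.06, 0.814, 0.979 and 1.89 CPM in the shLacZ libraries, and in those of shDis3l2 at 3.17, 0.832, 0.51, 5.45, 6.12, 25.3 and 33.3 CPM. The highest shLacZ value from d2 on was 2.06 CPM, and shDis3l2 reached 25.3 CPM at d10 and 33.3 CPM at d12, a fold of 26.7 (12.9 to 66.9) at d10. For Mmp19, the log2 fold change over d6 to d12 was 3.26 ± 0.49 (edgeR adjusted p = 0.003), higher in shDis3l2. Tmem198b covers 22.3% of its exon bases on the opposite strand. Mmp23 was at 4.3, 2.98, 2.09, 1.55, 1.88, 2.46 and 1.78 CPM in the shLacZ libraries, and in those of shDis3l2 at 1.97, 2.36, 1.17, 6.09, 10.2, 18.2 and 13.5 CPM. Mmp23, an MMP that is released from the membrane when its proprotein is cleaved, was lower in shDis3l2 from d0 to d4 and higher on each late day, with folds from 3.96 at d6 to 7.66 at d12. edgeR gave Mmp23 a log2 fold change of 2.56 ± 0.21 over d6 to d12 (adjusted p = 5.49e-04), higher in shDis3l2.

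Mmp28 and Mmp12 were low, and reached no more than 4.58 CPM and 5.61 CPM. Mmp28, or epilysin, was called higher at d6, d10 and d12, from 5, 3 and 3 counts in shLacZ against 15, 37 and 28 in shDis3l2. These folds rest on few reads, with an interval of 1.53 to 24.5 at d10. At d8, with 32 and 80 counts, the fold was 2.15 and not called. Mmp12, the macrophage metalloelastase, was counted 10 times in shLacZ and 0 times in shDis3l2 at d6, and 14 and 54 times at d12. Its line difference over d6 to d12 was not called (edgeR log2 fold change 0.19 ± 0.88, adjusted p = 0.886). At d12 the macrophage receptor Csf1r stood at 12.8 CPM in shLacZ against 49.4 CPM in shDis3l2, and Adgre1 at 4.20 and 26.9 CPM, and the part of these cells in the d12 value of Mmp12 was not tested.

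Membrane-type MMPs went both ways. Mmp14 (chr14:54431612-54441265), which encodes MT1-MMP, rose most in level. Mmp14 was at 11.3, 25.0, 53.5, 60.2, 56.4, 60.6 and 64.6 CPM in the shLacZ libraries, and in those of shDis3l2 at 7.89, 23.8, 79.5, 187, 188, 217 and 288 CPM. Up to d4 the lines stayed within 1.49-fold of each other, and from d6 on no shLacZ library exceeded 64.6 CPM while the lowest of shDis3l2 held 187 CPM. Its fold on d6 was 3.11 (2.85 to 3.4) and on d8 3.34 (3.09 to 3.6), and it grew to 3.57 (3.24 to 3.95) on d10 and 4.46 (4.08 to 4.88) on d12. Mmp14 had a late log2 fold change of 1.83 ± 0.09 (edgeR, adjusted p = 2.05e-04), higher in shDis3l2. In shLacZ the level stayed between 53.5 and 64.6 CPM from d4 on, so the gap opened in shDis3l2 between d4 and d6 and widened by d12.

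Mmp16 (MT3-MMP) appeared late. Mmp16 was at 0.136, 0.534, 1.46, 0.787, 2.48, 3.81 and 3.76 CPM in the shLacZ libraries, and in those of shDis3l2 at 0.0627, 0.177, 1.45, 2.9, 16.1, 40.1 and 33.3 CPM. Before d6 it was at no more than 1.46 CPM in any library, and from d8 on it stood at 2.48 to 3.81 CPM in shLacZ and 16.1 to 40.1 CPM in shDis3l2. The single overlap of late libraries was shDis3l2 d6, below 2 of the shLacZ libraries. For Mmp16, the log2 fold change over d6 to d12 was 2.93 ± 0.23 (edgeR adjusted p = 4.58e-04), higher in shDis3l2.

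Mmp15 (MT2-MMP), known from epithelia, went the other way from Mmp14. Mmp15 was at 7.91, 14.7, 34.8, 80.2, 92.5, 118 and 86.7 CPM in the shLacZ libraries, and in those of shDis3l2 at 6.74, 8.85, 24.8, 54.1, 57.7, 65.0 and 75.3 CPM. Every late shDis3l2 library lay below every late shLacZ library, though no day reached 3-fold and the fold at d12 was 0.869 (0.785 to 0.962). edgeR gave Mmp15 a log2 fold change of -0.59 ± 0.11 over d6 to d12 (adjusted p = 0.006), lower in shDis3l2. Per length, Mmp15 was the leading membrane-type Mmp of shLacZ on each late day, at 14.9 to 21.8 RPKM, whereas in shDis3l2 that was Mmp14, at 43.6 to 67.1 RPKM.

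Mmp24 (MT5-MMP), known from neurons, was lower in shDis3l2 on each late day. Mmp24 was at 0.424, 1.41, 0.83, 2.32, 5.6, 13.8 and 10.8 CPM in the shLacZ libraries, and in those of shDis3l2 at 0.364, 0.778, 1.01, 0.665, 1.73, 5.3 and 4.79 CPM. The late libraries overlapped through shLacZ d6, at 2.32 CPM, while the other shLacZ libraries were all above those of shDis3l2. Mmp24 had a late log2 fold change of -1.47 ± 0.19 (edgeR, adjusted p = 0.002), lower in shDis3l2. BC029722 covers 13.6% of its exon bases on the opposite strand.

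Mmp25 (chr17:23629458-23645269), the GPI-anchored MT6-MMP known from neutrophils, had a course of its own. Mmp25 was at 0.040, 92.1, 31.3, 2.32, 7.13, 7.32 and 4.2 CPM in the shLacZ libraries, and in those of shDis3l2 at 0.0125, 79.5, 32.6, 0.771, 0.699, 0.965 and 2.2 CPM. It was nearly absent at d0, with 1 count in shLacZ and 0 in shDis3l2, peaked at d2 in both lines and was within 1.16-fold between them at d2 and d4. Late levels were low, and at d8 shDis3l2 held 12 counts against 107, a fold of 0.0962 (0.0482 to 0.175). By d12 the fold was 0.521 (0.291 to 0.911). For Mmp25, the log2 fold change over d6 to d12 was -2.28 ± 0.43 (edgeR adjusted p = 0.007), lower in shDis3l2. Without d10 it was no longer called (adjusted p = 0.050). Mmp17 (MT4-MMP) fell from 31.8 and 19.2 CPM at d0 to 2.66 and 2.90 CPM at d6 in shLacZ and shDis3l2, and its late difference was not called (edgeR log2 fold change -0.32 ± 0.22, adjusted p = 0.288).

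Start-site sequences of members that moved together were read from RefSeq promoters (GRCm38.p6), which held 25 of the 39 genes. Of the 7 members called higher on every late day, 4 had an entry, and they are shown with Mmp25, the member called lower on the most days, so that the 2 behaviours can be compared. Each is the 250 bases before the annotated start, 5′ to 3′, on the strand of the gene. Mmp23 has 2 annotated starts, and the window of 1 of them is shown. Capitals mark GC boxes (GGGCGG, or CCGCCC on the other strand), and the same windows were searched on both strands for AP-1 sites (TGANTCA) and TATA boxes (TATAAA), which none of the 5 held.
Mmp14 (chr14:54431348-54431597, plus strand): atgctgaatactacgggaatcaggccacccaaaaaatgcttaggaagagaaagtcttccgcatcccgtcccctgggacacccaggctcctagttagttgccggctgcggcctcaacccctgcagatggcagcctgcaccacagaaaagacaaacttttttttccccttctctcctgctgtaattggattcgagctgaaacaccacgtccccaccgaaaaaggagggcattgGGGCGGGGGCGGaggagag
Mmp23 (chr4:155653385-155653634, minus strand): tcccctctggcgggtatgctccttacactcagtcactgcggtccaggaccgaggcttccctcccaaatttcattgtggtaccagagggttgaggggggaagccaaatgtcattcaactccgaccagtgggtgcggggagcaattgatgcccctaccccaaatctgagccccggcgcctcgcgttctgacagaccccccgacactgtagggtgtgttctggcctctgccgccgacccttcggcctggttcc
Adamts2 (chr11:50601835-50602084, plus strand): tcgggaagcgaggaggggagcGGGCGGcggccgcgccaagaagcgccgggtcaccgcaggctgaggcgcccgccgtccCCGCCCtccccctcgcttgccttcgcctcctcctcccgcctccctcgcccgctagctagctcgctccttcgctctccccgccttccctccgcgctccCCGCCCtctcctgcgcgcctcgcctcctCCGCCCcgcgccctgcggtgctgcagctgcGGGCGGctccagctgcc
Adamts12 (chr15:11064523-11064772, plus strand): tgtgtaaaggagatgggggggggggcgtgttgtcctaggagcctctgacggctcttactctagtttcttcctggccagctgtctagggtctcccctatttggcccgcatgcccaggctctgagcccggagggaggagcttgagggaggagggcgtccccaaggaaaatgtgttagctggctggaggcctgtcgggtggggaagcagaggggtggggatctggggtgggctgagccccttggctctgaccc
Mmp25 (chr17:23645270-23645519, minus strand): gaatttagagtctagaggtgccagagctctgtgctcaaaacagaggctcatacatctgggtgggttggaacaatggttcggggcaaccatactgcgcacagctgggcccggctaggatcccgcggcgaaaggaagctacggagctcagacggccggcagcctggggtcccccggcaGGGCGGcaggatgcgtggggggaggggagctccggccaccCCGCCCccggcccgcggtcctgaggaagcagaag

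Of the 4 printed members that were higher, 2 held a GC box. Adamts2 held 5 GC boxes and Mmp14 held 2, with no overlap with the other motifs, while Mmp23 and Adamts12 held 0, and Mmp25 held 2. A GC box was in 20 of the 25 matched members (80%), against 59.8% of 12251 listed genes with an entry. An AP-1 site, the element best known from MMP promoters, was in 1 of 25, Mmp12 (4%), against 5.96% of listed genes, and a TATA box was in 2, Adamts1 and Adamtsl2 (8%), against 8.68%. A gene with more than 1 annotated start was counted if any of its windows matched. Mmp12 has 2 windows, and its AP-1 site lay in chr9:7347124-7347373 and not in chr9:7344147-7344396. A match is a description of letters in this window and not a binding site.

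**Figure D4:**
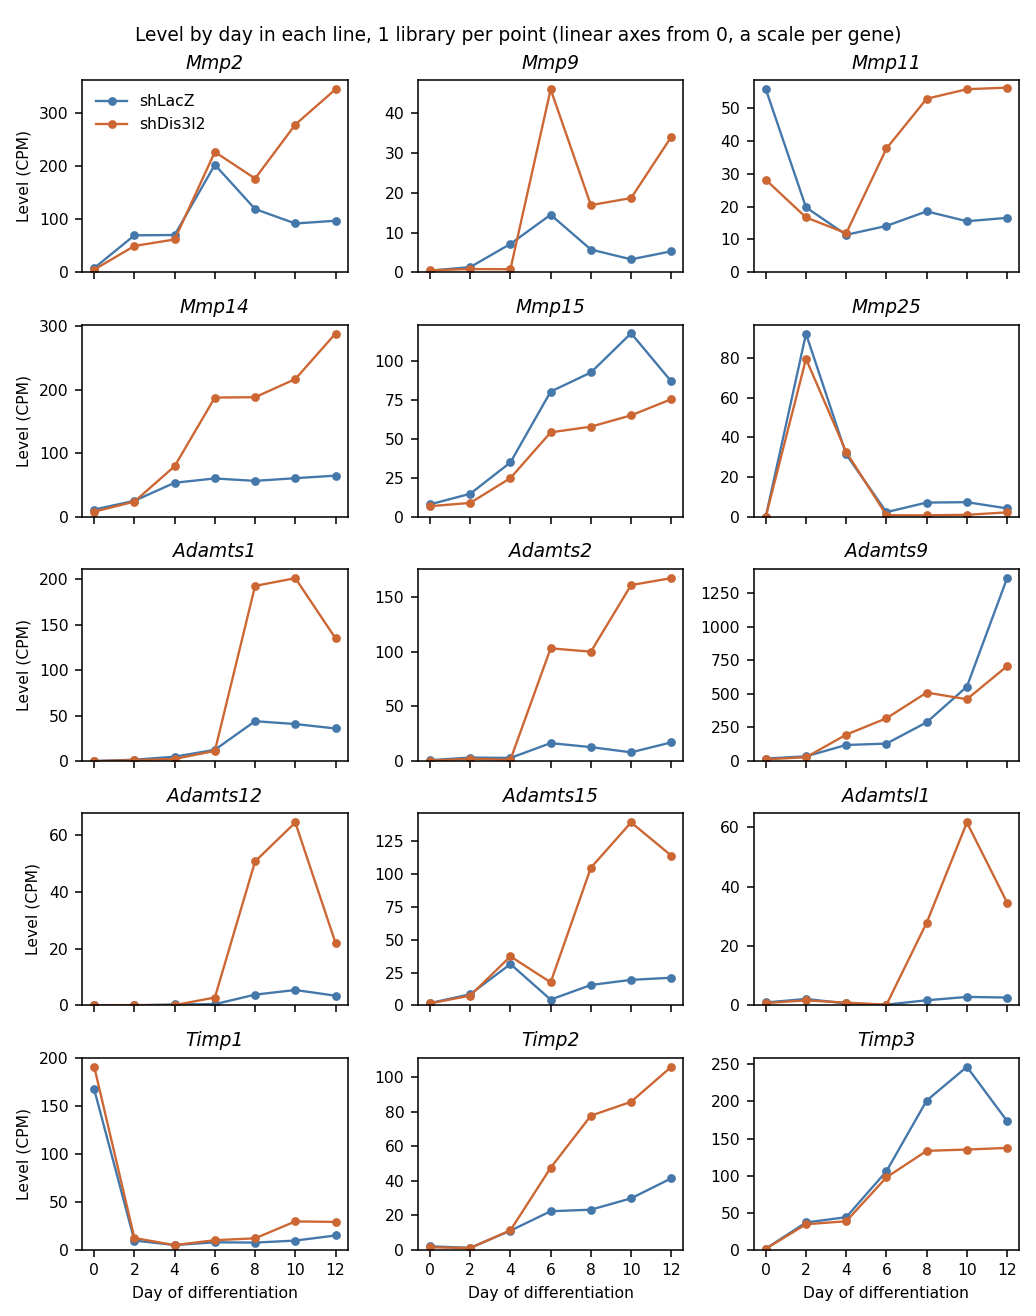
Level in CPM (vertical axes, linear from 0, with a scale per gene) by day (horizontal axes) in shLacZ (blue) and shDis3l2 (orange) for 15 members, 1 library per point. Mmp14 leaves the shLacZ curve at d6 and reaches 288 CPM at d12, Mmp15 and Timp3 run below it, and Adamts9 crosses it between d8 and d10.

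Among ADAMTS genes, 12 of 17 were at least 3-fold higher in shDis3l2 at d12 and none was lower. The procollagen N-proteinases are Adamts2, Adamts3 and Adamts14. Adamts2 (chr11:50602084-50807573), the main one for fibrillar collagen I, had the largest late difference of the 3. Adamts2 was at 0.84, 3.19, 2.88, 16.4, 12.8, 8.0 and 17.1 CPM in the shLacZ libraries, and in those of shDis3l2 at 0.464, 2.03, 1.28, 103, 100.1, 161 and 167 CPM. It was below shLacZ at d0, d2 and d4 and then 6.28-fold to 20.2-fold above it, with no overlap of late libraries. edgeR gave Adamts2 a log2 fold change of 3.24 ± 0.25 over d6 to d12 (adjusted p = 4.27e-04), higher in shDis3l2. Col1a1, a substrate chain and a mesenchyme marker, was also higher over d6 to d12 (edgeR log2 fold change 3.46 ± 0.28, adjusted p = 5.00e-04).

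Adamts14 had another course. Adamts14 was at 8.49, 3.37, 1.78, 1.55, 1.61, 2.06 and 2.55 CPM in the shLacZ libraries, and in those of shDis3l2 at 4.88, 2.74, 2.16, 0.771, 3.84, 6.09 and 12.4 CPM. It was higher in shLacZ at d0, d2 and d6, and shDis3l2 exceeded it 3.0-fold at d10 and 4.92-fold at d12. Adamts14 had a late log2 fold change of 1.25 ± 0.45 (edgeR, adjusted p = 0.066), which did not pass the threshold. Adamts3 was highest in shLacZ at d6. Adamts3 was at 0.168, 1.23, 6.99, 11.8, 4.4, 2.46 and 5.07 CPM in the shLacZ libraries, and in those of shDis3l2 at 0.0125, 1.32, 5.91, 8.86, 7.94, 7.68 and 9.65 CPM. It was higher in shDis3l2 at d8, d10 and d12, with a call at d10 alone, and its late difference was not called (edgeR log2 fold change 0.69 ± 0.32, adjusted p = 0.129).

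The proteoglycanases, which cleave versican and aggrecan, are Adamts1, Adamts4, Adamts5, Adamts8, Adamts9, Adamts15 and Adamts20. Adamts1 (chr16:85793827-85803113) had no read in either d0 library. Adamts1 was at 0.0080, 1.54, 4.78, 12.4, 43.9, 40.8 and 35.9 CPM in the shLacZ libraries, and in those of shDis3l2 at 0.0125, 0.996, 2.38, 11.2, 193, 201 and 135 CPM. At d6 the fold was 0.90 (0.694 to 1.16), and from d8 on the lines were 3.77-fold to 4.94-fold apart. For Adamts1, the log2 fold change over d6 to d12 was 1.7 ± 0.36 (edgeR adjusted p = 0.010), higher in shDis3l2. Without d8 or without d10 it was not called, with a highest adjusted p of 0.073.

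Adamts5 lies beside Adamts1 on chr16 (chr16:85858170-85901125) and was rare in shLacZ. Adamts5 was at 0.0080, 0.839, 0.356, 0.531, 0.947, 1.11 and 1.12 CPM in the shLacZ libraries, and in those of shDis3l2 at 0.0125, 0.287, 0.179, 2.47, 12.5, 13.9 and 12.3 CPM. No late shLacZ library held more than 1.12 CPM, and shDis3l2 held 2.47 CPM at d6 and 12.3 to 13.9 CPM afterwards. edgeR gave Adamts5 a log2 fold change of 3.4 ± 0.27 over d6 to d12 (adjusted p = 4.94e-04), higher in shDis3l2. Adamts15 was present in both lines at d4 and dipped at d6. Adamts15 was at 1.77, 8.51, 31.5, 4.44, 15.6, 19.5 and 21.1 CPM in the shLacZ libraries, and in those of shDis3l2 at 1.57, 7.49, 37.3, 17.6, 105, 139 and 114 CPM. After the dip it returned to 15.6 to 21.1 CPM in shLacZ and to 105 to 139 CPM in shDis3l2, so that only shDis3l2 d6 lay within the late range of shLacZ. Adamts15 had a late log2 fold change of 2.55 ± 0.14 (edgeR, adjusted p = 2.30e-04), higher in shDis3l2.

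Adamts9 (chr6:92772699-92943492), whose product is known from basement membranes and endothelium, had the highest level per length of the ADAMTS genes in shLacZ from d4 on. Adamts9 was at 19.0, 35.4, 119.7, 130.0, 288, 554 and 1361 CPM in the shLacZ libraries, and in those of shDis3l2 at 13.3, 28.4, 197, 318, 509, 459.7 and 706 CPM. Its curves crossed: the fold of shDis3l2 over shLacZ was 2.45 (2.3 to 2.61) at d6 and 0.519 (0.504 to 0.535) at d12. Over d6 to d12 its log2 fold change was 0.21 ± 0.35 (edgeR adjusted p = 0.666). Without d6 the log2 fold change was -0.15 and without d8 it was -0.00, so its direction changed with the days used. Per length, Adamts9 made up 78.5% of all Adamts RPKM in shLacZ at d12 and 31.1% in shDis3l2. A730049H05Rik covers 9.18% of its exon bases on the opposite strand.

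Adamts4 and Adamts8 were low. Adamts4 was at 2.02, 1.58, 2.09, 4.19, 1.81, 3.0 and 3.76 CPM in the shLacZ libraries, and in those of shDis3l2 at 1.27, 1.43, 1.67, 6.84, 4.18, 7.36 and 11.5 CPM. Adamts4 was at least 3-fold higher in shDis3l2 at d12 only, and over d6 to d12 it was higher as well (edgeR log2 fold change 1.2 ± 0.21, adjusted p = 0.005). Adamts8 fell from 4.52 and 2.37 CPM at d0 to 0.36 and 0.66 CPM at d6, and was 4.15-fold higher in shDis3l2 at d12. Over d6 to d12 it was higher in shDis3l2 (edgeR log2 fold change 1.34 ± 0.31, adjusted p = 0.015). That call was lost without d8, d10 or d12, with a highest adjusted p of 0.063. Adamts20, at no more than 7.06 CPM, was called between the lines on no day and not over d6 to d12 (edgeR log2 fold change 0.54 ± 0.28, adjusted p = 0.173).

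Adamts7 and Adamts12, a pair known to cleave cartilage oligomeric matrix protein, were both higher late. Adamts7 was at 7.08, 17.1, 12.2, 17.6, 14.9, 15.3 and 15.5 CPM in the shLacZ libraries, and in those of shDis3l2 at 4.33, 16.7, 13.4, 34.7, 38.6, 37.9 and 54.9 CPM. Every late shDis3l2 library was above every late shLacZ library, at 34.7 to 54.9 CPM against 14.9 to 17.6 CPM. For Adamts7, the log2 fold change over d6 to d12 was 1.36 ± 0.14 (edgeR adjusted p = 8.80e-04), higher in shDis3l2. Adamts12 was nearly silent before d6. Adamts12 was at 0.0080, 0.0545, 0.356, 0.446, 3.8, 5.43 and 3.43 CPM in the shLacZ libraries, and in those of shDis3l2 at 0.0125, 0.123, 0.124, 2.79, 50.7, 64.3 and 22.0 CPM. At d0 it had no read in either line, and at d8 the fold was 13.4 (10.2 to 17.8). edgeR gave Adamts12 a log2 fold change of 3.32 ± 0.22 over d6 to d12 (adjusted p = 3.39e-04), higher in shDis3l2. It was also the member called higher over all 7 days (edgeR log2 fold change 3.0 ± 0.39, adjusted p = 0.013).

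Of the fibrillin-linked pair, Adamts10 had the higher level per length. Adamts10 was at 6.38, 13.4, 22.8, 22.7, 27.3, 22.4 and 29.8 CPM in the shLacZ libraries, and in those of shDis3l2 at 5.63, 13.7, 29.3, 39.1, 79.9, 99.6 and 100.5 CPM. The late libraries did not overlap, and the fold grew from 1.72 at d6 to 4.44 at d10. Adamts10 had a late log2 fold change of 1.56 ± 0.20 (edgeR, adjusted p = 0.002), higher in shDis3l2. Adamts6, its paralog, had no read in either d0 library. Adamts6 was at 0.0080, 2.98, 8.42, 3.93, 5.4, 4.76 and 4.09 CPM in the shLacZ libraries, and in those of shDis3l2 at 0.0125, 2.96, 7.24, 8.11, 14.3, 23.9 and 20.8 CPM. The fold was 0.994 (0.682 to 1.44) at d2 and 0.862 (0.622 to 1.21) at d4, and the gene was 2.07-fold to 5.12-fold higher in shDis3l2 late. For Adamts6, the log2 fold change over d6 to d12 was 1.77 ± 0.25 (edgeR adjusted p = 0.002), higher in shDis3l2.

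Adamts17 and Adamts19 form another pair of paralogs. Adamts17 was at 0.584, 0.709, 4.62, 14.2, 14.2, 6.11 and 8.91 CPM in the shLacZ libraries, and in those of shDis3l2 at 0.615, 0.669, 2.72, 27.4, 24.3, 28.0 and 20.6 CPM. Late levels were 6.11 to 14.2 CPM in shLacZ and 20.6 to 28.0 CPM in shDis3l2. edgeR gave Adamts17 a log2 fold change of 1.23 ± 0.23 over d6 to d12 (adjusted p = 0.007), higher in shDis3l2. Adamts19 reached no more than 2.88 CPM in shLacZ and reached 9.44 CPM in shDis3l2 at d12, with calls at d8, d10 and d12, and was higher over d6 to d12 (edgeR log2 fold change 2.4 ± 0.33, adjusted p = 0.002). Adamts18 reached no more than 11.5 CPM and its late difference was not called (edgeR log2 fold change 0.53 ± 0.26, adjusted p = 0.146).

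Among the ADAMTS-like genes, Adamtsl1 (punctin) had the largest late difference of all 39 members. Adamtsl1 was at 1.0, 2.19, 0.672, 0.276, 1.74, 2.87 and 2.66 CPM in the shLacZ libraries, and in those of shDis3l2 at 0.816, 1.71, 0.951, 0.239, 27.8, 61.5 and 34.6 CPM. At d6 it was counted 3 times in shLacZ and 2 times in shDis3l2, and at d8 the fold was 16.1 (10.9 to 24.9). Adamtsl1 had a late log2 fold change of 3.91 ± 0.34 (edgeR, adjusted p = 5.92e-04), higher in shDis3l2. Adamtsl2, which binds LTBP1 and fibrillin, was higher at d6 and d10 but at no more than 5.24 CPM, and was higher over d6 to d12 (edgeR log2 fold change 1.6 ± 0.33, adjusted p = 0.010).

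The other ADAMTS-like genes did not follow. Adamtsl5 was at 5.42, 0.36, 1.15, 2.06, 4.6, 7.19 and 14.3 CPM in the shLacZ libraries, and in those of shDis3l2 at 2.57, 0.341, 0.786, 0.346, 3.27, 5.62 and 7.68 CPM. The fold of Adamtsl5 was under 1 on each day, though its interval held 1 at d2, d4, d8 and d10. It was 6.39-fold lower in shDis3l2 at d6 from 24 and 3 counts. For Adamtsl5, the log2 fold change over d6 to d12 was -0.81 ± 0.30 (edgeR adjusted p = 0.067), which did not pass the threshold. Adamtsl3 reached no more than 2.46 CPM, and was 3.06-fold lower at d10. Adamtsl4, at no more than 4.42 CPM, differed by a log2 fold change of -0.00 ± 0.31 over d6 to d12 (edgeR adjusted p = 0.995).

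The 4 inhibitors took 4 courses. Timp1 (chrX:20870166-20874735), which is high in many proliferating and stimulated cells, was the member that fell most with differentiation in both lines. Timp1 was at 167, 9.69, 4.94, 7.84, 7.53, 9.62 and 14.9 CPM in the shLacZ libraries, and in those of shDis3l2 at 191, 12.3, 4.92, 10.0, 12.0, 29.6 and 29.1 CPM. It had the highest level per length of all members at d0, dropped to 9.69 and 12.3 CPM at d2 and, in shDis3l2, recovered to 29.6 CPM at d10. At d0 the lines were within 1.14-fold and at d10 the fold was 3.09 (2.41 to 4.01). edgeR gave Timp1 a log2 fold change of 0.9 ± 0.21 over d6 to d12 (adjusted p = 0.015), higher in shDis3l2. Without d8 or without d10 it was not called, with a highest adjusted p of 0.053.

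Timp2 (chr11:118301069-118355740), which forms the complex with MT1-MMP on pro-MMP2, was higher late in shDis3l2. Timp2 was at 2.02, 1.14, 11.1, 22.4, 23.3, 29.9 and 41.5 CPM in the shLacZ libraries, and in those of shDis3l2 at 1.47, 0.996, 11.3, 47.6, 77.8, 85.9 and 106 CPM. Late shDis3l2 libraries were all above late shLacZ libraries, 2.13-fold at d6 and 3.34-fold at d8. Timp2 had a late log2 fold change of 1.42 ± 0.12 (edgeR, adjusted p = 5.21e-04), higher in shDis3l2.

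Timp3 (chr10:86300372-86349506), the matrix-bound inhibitor, was the only Timp gene called lower over d6 to d12. Timp3 was at 1.58, 36.8, 44.0, 106, 201, 247 and 173 CPM in the shLacZ libraries, and in those of shDis3l2 at 1.32, 34.4, 38.5, 97.7, 133, 135 and 137 CPM. It rose 111-fold from d0 to d12 in shLacZ and 105-fold in shDis3l2. The fold of Timp3 was under 1 on every day, but its interval held 1 from d0 (0.497 to 1.37) through d6 (0.846 to 1.01). At d8, d10 and d12 Timp3 was lower in shDis3l2, by 1.82-fold at d10. For Timp3, the log2 fold change over d6 to d12 was -0.49 ± 0.12 (edgeR adjusted p = 0.017), lower in shDis3l2. Without d8 or without d10 the call was lost, with a highest adjusted p of 0.088. Timp3 lies within Syn3, whose exons cover 21.3% of its exon bases on the opposite strand, and Syn3 had 109 counts in all libraries together. Timp4 was scarce. Timp4 was at 0.072, 2.76, 0.514, 0.531, 1.01, 0.844 and 1.23 CPM in the shLacZ libraries, and in those of shDis3l2 at 0.0125, 4.32, 1.56, 0.133, 0.642, 0.436 and 0.543 CPM. It was called higher at d4 from 3 and 28 counts, a fold of 3.25 (1.01 to 16.7), and its late difference was not called (edgeR log2 fold change -1.05 ± 0.39, adjusted p = 0.074).

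Levels were added per length to set the classes side by side, as RPKM with the total over listed genes as the library size. Secreted MMPs summed to 37.9 RPKM in shLacZ and 149 RPKM in shDis3l2 at d12, a ratio of 3.93, and the ratio was 3.5 at d10. Without Mmp2 these ratios were 5.16 and 5.12. Membrane-type MMPs summed to 35.7 and 87.1 RPKM at d12, a ratio of 2.44, and to a ratio of 1.64 at d10. Without Mmp14 the ratios were 0.97 and 0.66, so the class was higher through that 1 member.

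Adamts genes summed to 115 RPKM in shLacZ and 151 RPKM in shDis3l2 at d12, a ratio of 1.31, against 2.56 at d10. Without Adamts9 these ratios were 4.21 and 5.44. Adamtsl genes reached no more than 7.22 RPKM in sum, with ratios of 2.6 at d10 and 1.25 at d12. Without Adamtsl1 those were 0.94 and 0.68, so this class too was higher through 1 member, and without Adamtsl5 they were 4.78 and 2.65. Timp genes summed to 49.0 and 77.0 RPKM at d12, a ratio of 1.57. The makeup of the Timp sum differed too: Timp3 was 62.0% of it in shLacZ and 23.0% in shDis3l2 at d10, where Timp1 and Timp2 were 46.3% and 30.6% in shDis3l2.

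The ratio of summed Timp RPKM to summed Mmp RPKM was highest in ESCs, at 5.52 in shLacZ and 11 in shDis3l2, and fell to 0.24 and 0.35 at d2. It rose again to 0.66 in shLacZ at d12, and was 0.33 in shDis3l2. From d4 on it was lower in shDis3l2 on each day. These are ratios of transcripts in 1 library each, with no test.

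**Figure D5:**
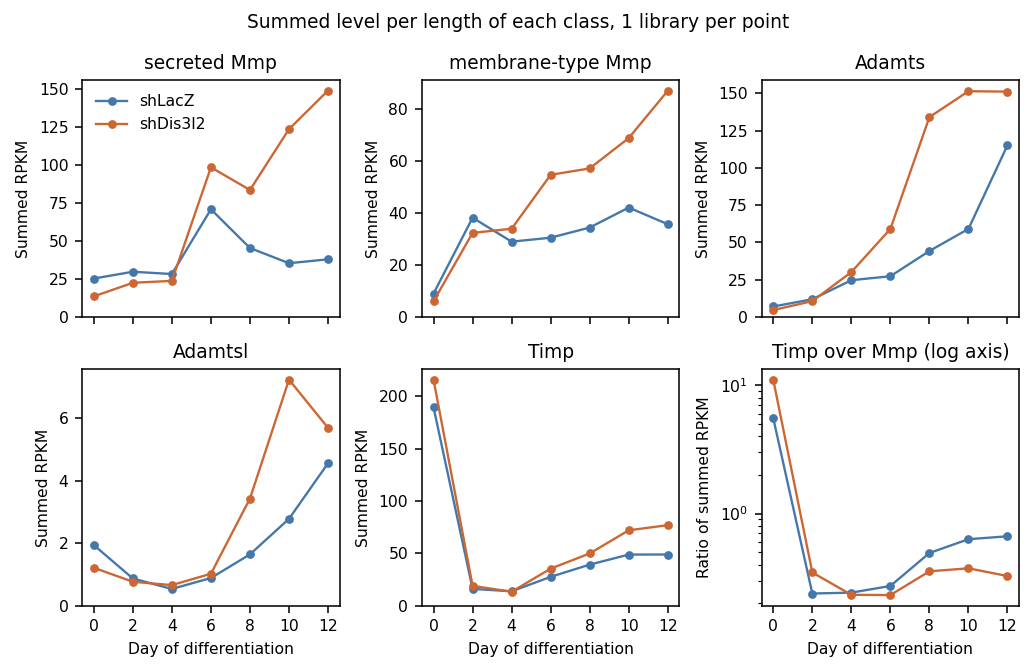
Summed RPKM of each class (5 panels) and the ratio of summed Timp to summed Mmp RPKM (sixth panel, log axis) by day in shLacZ (blue) and shDis3l2 (orange), 1 library per point. The gap in the secreted Mmp sum widens from d8 and reaches 149 RPKM against 37.9 RPKM at d12, and the Timp over Mmp ratio ends at 0.33 against 0.66.

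Other genes that act on these proteins were taken from short lists. Of the inhibitors and clearance receptors besides TIMPs, all 4 tested over d6 to d12 were higher in shDis3l2, where 19.6% of all genes were higher and 18.7% lower, and Papln was too low to be tested. They were Reck, the membrane-anchored MMP inhibitor (edgeR log2 fold change 1.13 ± 0.15, adjusted p = 0.002), Lrp1, the endocytic receptor that clears MMP and TIMP complexes (log2 fold change 1.52 ± 0.13, adjusted p = 5.57e-04), A2m and Serpine2. Of 8 activators and cofactors, 2 were higher, the proprotein convertase Pcsk5 (log2 fold change 1.74 ± 0.11, adjusted p = 3.39e-04) and the urokinase Plau (log2 fold change 1.59 ± 0.17, adjusted p = 9.43e-04), and 1 was lower, the urokinase receptor Plaur (log2 fold change -1.16 ± 0.11, adjusted p = 7.89e-04). Furin, which removes the prodomain of MT1-MMP, was not called (log2 fold change 0.4 ± 0.15, adjusted p = 0.074). These shares of 8 lie near those of all genes.

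Of 4 astacin procollagen proteinases and enhancers tested, Bmp1 and Pcolce were higher and Pcolce2 was lower. Bmp1, the procollagen C-proteinase, was at 92.5 CPM against 208 CPM in shDis3l2 at d10. Of 7 ADAM sheddases tested, Adam12 and Adam19 were higher and none was lower, and of both lists the shares are to be read against the 19.6% higher and 18.7% lower of all genes. Adam12, known from mesenchyme and myoblasts, stood at 23.2 and 204 CPM at d10. Of the proteoglycan substrates, Vcan (versican) was higher (log2 fold change 2.27 ± 0.21, adjusted p = 7.12e-04), at 278 to 2231 CPM in the late libraries. Ncan was lower (log2 fold change -1.94 ± 0.43, adjusted p = 0.013). Ncan was scarce, at 0.446 to 2.73 CPM in the late shLacZ libraries and 0.336 to 0.542 CPM in those of shDis3l2. Acan and Bcan were too low to be tested.

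Markers of other cell types were counted in the same fit over d6 to d12, in which 19.6% of all genes were higher and 18.7% lower. All 5 visceral endoderm markers were lower, at 3021 to 6819 CPM in shLacZ and 581 to 1841 CPM in shDis3l2. Of 6 parietal endoderm markers, which other tissues also express in part, 5 were lower, at 9339 to 48642 CPM and 3730 to 24544 CPM. Of 4 epithelial markers 3 were lower, of 5 pluripotency markers 4 were lower, of 4 cardiomyocyte markers 3 were higher, of 5 endothelial markers 2 were higher, of 6 macrophage and blood markers 3 were higher, and of 4 neural markers 1 was higher and 1 lower, the last near the shares of all genes. The part of these cell types in the differences of the 39 members was not tested.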

How the data were processed

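Poly(A)+ RNA of 2 mouse ESC lines was sequenced on 7 days, 1 library each time. The authors aligned reads with Subread to GRCm38, used featureCounts to count reads on each gene and deposited these whole counts without normalization. The CPM values that the authors deposited for 16181 genes were made with edgeR, and equal the count plus a prior count of 0.25 over the total of the listed genes, which was checked in all 14 libraries. A gene with 0 counts is therefore listed slightly above 0 CPM. The strand setting of the counting is not given in the sources used here. Knockdown columns carry another name in the tables and were matched to the shDis3l2 samples by day and by identical values under that name in the study's supplementary data. Columns of authors' comparisons were not used.

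Depth was 7178712 to 39888099 counts per library. Groups came from the sample labels. On a single day no test was possible, so folds of scaled counts were given with 95% Clopper-Pearson intervals and called at 3-fold with at least 1 CPM. A library at 0 counts was set to a floor of 3 counts. Both the intervals and the floor cover counting error only, as PCR copies cannot be told from separate molecules. Differences over days were fitted to all genes with edgeR 4.0.16 in R 4.3.3 (TMM, filterByExpr, day as a block, quasi-likelihood F test, Benjamini-Hochberg adjusted p under 0.05). The standard error was approximated as the log2 fold change over the square root of F. RPKM was computed from the counts and the deposited gene lengths. The fits were tested on simulated data. Alternatives were other scalings, minima and folds, no filter, DESeq2 1.42.0 and leaving out each day. Values from every library were given for members that reached 10 CPM in 1 library and were called on a late day, and for the Timp genes. The members, the lists and the split into early and late days were chosen with earlier results of these data known. From the lists, 1 gene is not reported here. Of the names in the rule, 12 further genes are in the count table but not in the CPM table, and were not compared. Other steps used Python 3.11.15 with pandas 2.3.3, scipy 1.17.1, numpy 2.4.6 and, for plots, matplotlib 3.10.9.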

Additional observations from a re-analysis of the deposited data

Results flagged for a closer look

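The line difference (shDis3l2 over shLacZ) changed between the early days (up to d4) and the late days (from d6) in 19 members by edgeR's test of the interaction (Benjamini-Hochberg adjusted p under 0.05), with the days of 1 series in the place of replicates. The split of days was chosen with earlier results of these data known. The shift was positive in 18. Among the proteoglycanases it was 4.67 on the log2 scale for Adamts5, 2.43 for Adamts15, 1.73 for Adamts8 and 1.45 for Adamts4. Adamts2 shifted by 3.99, Adamtsl1 by 3.91 and Adamts7 by 1.43. Of the fibrillin-linked genes and their paralogs, Adamts19 shifted by 2.90, Adamts6 by 1.81 and Adamts10 by 1.35. The membrane-type genes Mmp16 and Mmp14 shifted by 3.45 and 1.69. Among secreted MMPs the shift was 3.41 for Mmp9, 3.18 for Mmp23, 2.92 for Mmp19, 1.91 for Mmp11 and 1.32 for Mmp2. Of the inhibitors, Timp2 shifted by 1.47. The 1 negative shift was that of Mmp25, at -2.29.

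Leaving out 1 day at a time left between 10 and 20 positive calls, and Mmp25 lost its call without d2, d4, d8 or d10. Over all genes these fits held 315 to 1169 positive calls, against 972 with every day. Kept in each of these fits and under the other settings were Adamts2, Adamts7, Adamts15, Adamtsl1, Mmp9, Mmp11, Mmp14, Mmp16, Mmp23 and Timp2.

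Of 12 genes with names of the same families that the CPM table does not list, 3 had more reads in an shDis3l2 library than in any shLacZ library and more than the 3 counts of the floor. The highest counts were 8 for Adamts16, 7 for Mmp13 and 5 for Mmp10, each in shDis3l2 d6, against 6, 5 and 4 in the highest shLacZ library. No fold was computed from them.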

How the results depend on the processing

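Scaling by all counted genes, by TMM or by DESeq2 size factors kept the members called on each day within 1.5 times, except that the falls from d0 to d12 in shLacZ were 3 with all-gene totals. With no minimum CPM, 3 members were lower at d2 and 4 at d8. A minimum of 5 CPM left 0 higher at d4, 6 higher and 0 lower at d6, 1 lower at d10 and 14 that rose in shLacZ. At 2-fold, 2 were lower at d0, 2 higher and 3 lower at d4, 22 higher at d8 and 2 lower at d12. Shares over all genes were not counted at these minima or at 2-fold, so these counts have no background beside them. The 7-day fit was the least stable: 12 members were higher without the filter, 12 higher and 4 lower by DESeq2, and 1 lower with DESeq2 size factors. Of all genes, 382 of 20050 were higher in the main fit, 847 of 33800 without the filter and 1065 of 16762 by DESeq2. Lower were 765, 1246 and 1446 of them, and 612 of 20050 with DESeq2 size factors. Leaving out single days gave 0 to 10 higher and 0 to 2 lower members in the 7-day fit. It gave 20 to 27 higher and 2 to 4 lower over d6 to d12, and 10 to 20 higher and 0 to 1 lower for the change of the difference. Over all genes these ranges were 1 to 841 and 7 to 1348, 1695 to 3440 and 1641 to 3237, and 315 to 1169 and 209 to 982. At an unadjusted p under 0.05 the 7-day fit held 22 of 39 members, in either direction, and 5323 of 20050 genes. Without d10, Mmp25 and Timp3 lost their late calls. Adamts9, not called over d6 to d12, ranged from -0.15 without d6 and -0.00 without d8 to 0.62 without d12. The cause was not tested. Class ratios (shDis3l2 over shLacZ) at d10 and d12 without the leading member were 5.12 and 5.16 for secreted Mmp genes, 0.66 and 0.97 for membrane-type Mmp genes, 5.44 and 4.21 for Adamts, 4.78 and 2.65 for Adamtsl (without Adamtsl5, the most abundant over all libraries) and 1.02 and 1.37 for Timp (without Timp1). Chosen after seeing the data, leaving out the member that led in shDis3l2 gave 0.94 and 0.68 for Adamtsl (without Adamtsl1) and 2.21 for Adamts at d10 (without Adamts1). With all members and TMM-scaled sizes the d12 ratios were 3.68, 2.28 and 1.23 for secreted Mmp, membrane-type Mmp and Adamts, against 3.93, 2.44 and 1.31. With 1 library per line and day, depth limits members near 1 CPM, where shLacZ d4 and shLacZ d10 hold under 10 counts. Each fit paired the lines by day, with day as a block. A pairing by replicate number could not be made, as each line and day has 1 library.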
